A study of Danio rerio with 9 samples.

Results

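Gene expression in whole zebrafish larvae exposed to 32 µM perfluorobutane sulfonate (PFBS) was compared with that in larvae exposed to 16 µM, without the unexposed control. The comparison holds every row of the authors' deposited table for this pair of doses, 29163 rows, and rests on 6 of the 9 samples of the series. PFBS is a short-chain member of the perfluorinated sulfonates, persistent surfactants used in place of longer-chain compounds. The labels give 3 samples at 32 µM PFBS and 3 at 16 µM PFBS, and a control group of 3 with 0.01% DMSO stands in the other tables of the series. No DMSO share is given for the PFBS groups. All groups were AB strain embryos, freed of the chorion at 24 h after fertilization, kept in medium renewed each day and collected whole at 96 h. Each sample pooled 15 embryos, and 3 experiments each gave a sample of every group, although no label ties a sample to its experiment. The stated growth temperature is 37 °C, warm for zebrafish, and the hour of collection is not stated.

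Perfluorinated sulfonates bind lipid-carrying proteins and are known in vertebrate liver as activators of fatty acid sensing nuclear receptors. Zebrafish larvae of this age have a working retina with cone photoreceptors, a pancreas that secretes digestive enzymes, and a circadian clock whose output genes follow the hour of the day. Immediate early genes, a further class described here, are transcription factors and signalling regulators induced within minutes by stress, hormones or neuronal firing.

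The authors' deposited table gives 1 level per group, as FPKM (fragments divided by transcript length and library size), with a log2 ratio of the groups and a q-value. No value per sample, no depth and no standard error can be read from it, so the authors' q-values, from a test not named in the sources used here, are the sole measure of whether a difference is significant. A row was called where its q-value was below 0.05. Log2 ratios are 32 µM over 16 µM PFBS, and a positive ratio means a higher level at 32 µM. "Rose" and "fell" are used of called rows alone and describe 32 µM relative to 16 µM. The smallest q-value, 0.0194, was shared by 75 rows, so called rows cannot be ranked by q. A called row had that q unless another is given. Organ markers were present at both doses in the authors' deposited table: skeletal muscle actin actc1b had 15393.1 FPKM at 32 µM and 15393.1 at 16 µM, insulin ins had 41.1 and 39.4 FPKM at 32 and 16 µM, and the intestinal fatty acid binding protein fabp2 had 596.3 FPKM at each dose.

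Few rows differed between the doses. The authors called 96 of 29163 rows (0.329%) in their deposited table, 68 higher (0.233%) and 28 lower (0.0960%) at 32 µM. For scale, the authors' deposited tables called 76 of 29280 rows (0.260%) between 16 µM and the control and 492 of 26901 (1.83%) between 32 µM and the control. Of the called rows, 52 named a single gene, 42 had no gene name and 2 pooled several names. With 1 row per gene name, 51 of 11946 genes (0.427%) were called, 36 higher (0.301%) and 15 lower (0.126%). The median log2 ratio over all 11946 genes was 0.

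The called differences were small. Among called rows above 0 FPKM in both groups, the median size of the log2 ratio was 0.39, with 17 rows past 1.5-fold and 5 past 2-fold. Called rows that rose had a median level of 9.35 FPKM in the higher group, against 29.4 FPKM for those that fell. Of all rows, 53.3% had a log2 ratio within 0.1 of 0 and 90.1% within 0.5. A further 860 rows above 0 FPKM in both groups differed at least 2-fold without being called. Together with the 5 called ones they make up 865 rows, of which 838 have no gene name and 717 lie below 5 FPKM.

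**Figure D1:**
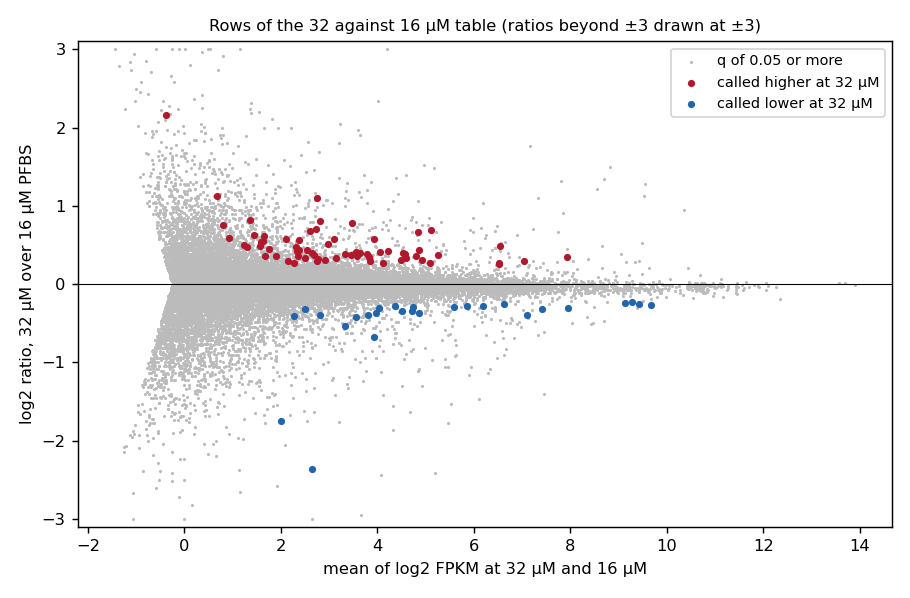
Log2 ratio of 32 µM over 16 µM PFBS (vertical axis) against the mean of the log2 FPKM of both groups (horizontal axis) for each row above 0 FPKM in both groups; grey points were not called, red points rose and blue points fell at 32 µM. By the level in the higher group, the 95th percentile of the size of the ratio over all rows was 1.07 at 1 to 2 FPKM. It was 0.29 at 20 to 50 FPKM and 0.46 at 100 FPKM or more, so the spread did not narrow steadily with level. Most rows that differed at least 2-fold were not called, and most of them lay below 5 FPKM.

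**Figure D2:**
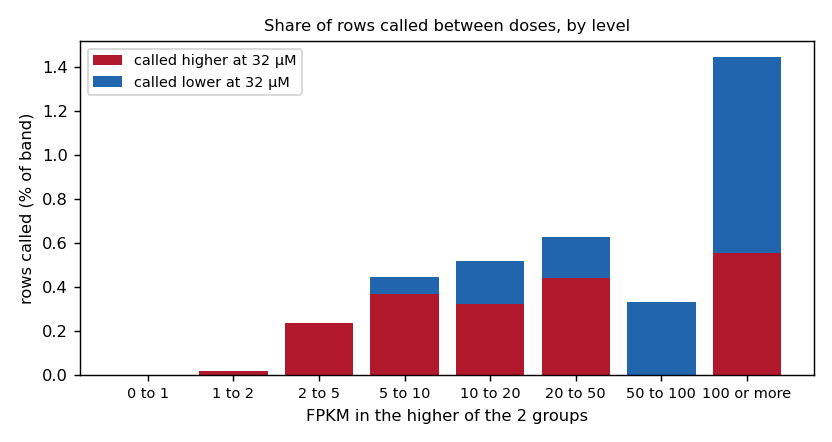
Percent of rows called (vertical axis) by the FPKM in the higher of both groups (horizontal axis), split into rows that rose (red) and fell (blue) at 32 µM. The share called was 0 of 1337 rows below 1 FPKM and 13 of 900 rows at 100 FPKM or more, and all 17 rows called between 2 and 5 FPKM rose.

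The gene that rose most among named genes was mmp9, a matrix metalloproteinase secreted by neutrophils and by wounded epithelium. In the authors' deposited table it had 9.78 FPKM at 32 µM and 4.56 FPKM at 16 µM, a log2 ratio of 1.10 (chromosome 8, 25134467 to 25148890, danRer7). The elongation factor eef1a1l2, which carries aminoacyl-tRNA to the ribosome, followed in the authors' deposited table with 44.0 FPKM at 32 µM and 27.3 at 16 µM (log2 ratio 0.69). Next in the authors' deposited table stood fkbp5, a co-chaperone of the glucocorticoid receptor and a target of it, with 35.8 FPKM at 32 µM and 22.8 at 16 µM (0.66). The ciliogenesis transcription factor rfx3 (3.39 and 2.19 FPKM at 32 and 16 µM) and the cell cycle inhibitor cdkn1a (3.92 and 2.55 FPKM) rose by 0.63 and 0.62 in the authors' deposited table. For these 5 genes the FPKM at 32 µM was 1.54 to 2.14 times that at 16 µM.

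Immediate early genes supplied the most called members of any list that rose. The authors' deposited table shows 6 of 54 measured members that rose and none that fell, against the 0.301% of all genes that rose. The lists were chosen with earlier results of these data known. No enrichment is therefore read, here or below, from the share of a list that was called. The salt-inducible kinase sik1 had 18.6 FPKM at 32 µM and 12.6 at 16 µM in the authors' deposited table (log2 ratio 0.57). The AP-1 subunit jund had 2.91 and 2.07 FPKM at 32 and 16 µM (0.48, q = 0.0456), and the orphan nuclear receptor nr4a1 had 21.6 and 16.1 FPKM (0.42). Npas4a, a transcription factor induced by neuronal activity, had 14.4 FPKM at 32 µM and 10.9 at 16 µM in the authors' deposited table (0.40). The blood flow responsive factor klf2a had 43.7 and 33.8 FPKM (0.37), and the nuclear protein csrnp1b had 19.0 and 15.7 FPKM (0.27, q = 0.0331). The rise did not extend to the most abundant members, since ctgfa (-0.01), mcl1b (-0.09) and egr1 (0.04) were not called in the authors' deposited table (q = 0.999 each). The list's median log2 ratio was 0.04, with 34 members above 0 and 19 below, against a median of 0 with 5723 above and 5658 below over all genes.

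Stress hormone targets held a few called members beside others centred near 0. Of 21 measured genes of the glucocorticoid receptor and its targets, the authors' deposited table called fkbp5 and cebpd, both of which rose (0.301% of all genes rose). The acute phase transcription factor cebpd had 101.1 FPKM at 32 µM and 83.9 at 16 µM (log2 ratio 0.27). The receptor-induced kinase sgk1 had 32.0 and 26.9 FPKM in the authors' deposited table (0.26), just outside the threshold at q = 0.0688. Klf9, a hormone-responsive factor that also stands in the thyroid list, had 17.3 FPKM at 32 µM and 11.4 at 16 µM (0.59, q = 0.146). The most abundant uncalled members in the authors' deposited table had ratios below 0, with anxa1a at -0.17, anxa1b at -0.14 and the metallothionein mt2 at -0.09. The list's median was -0.02, with 10 members above 0 and 11 below.

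Pancreatic digestive enzymes were the list with the highest median. Of 26 listed symbols, 11 had a row of their own. All 11 had positive log2 ratios in the authors' deposited table, with a median of 0.18 and a range of 0.02 to 0.63. Of these 11, 3 rose, against 0.301% of all genes. A further 4 pooled rows hold members of this list, and none was called. Over all 11946 genes 5723 ratios were above 0 and 5658 below, with a median of 0. The elastase ela3l had 109.9 FPKM at 32 µM and 78.2 at 16 µM in the authors' deposited table (log2 ratio 0.49; chromosome 5, 27755537 to 27763331). The astacin protease c6ast4 had 33.8 and 24.9 FPKM at 32 and 16 µM (0.44), and the elastase ela2 had 146.0 and 118.6 FPKM (0.29). Trypsin (try), the most abundant member, had 445.7 FPKM at 32 µM and 430.5 at 16 µM in the authors' deposited table (0.05, q = 0.999). Elastase ela2l had a ratio of 0.22 (q = 0.146) and the chymotrypsin-like ctrl one of 0.15 (q = 0.999). Ela2 and ela2l are neighbouring elastase genes on chromosome 8. Reads may be divided between them if their sequences are alike, which was not examined. In whole animals, more cells of a type and more RNA per cell cannot be told apart. The islet list, from the endocrine part of the same organ, had no called member among 23 in the authors' deposited table and a median of 0, with neurod1 at 0 and ins at 0.06.

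Vision genes were the list with the most called members that fell. The authors' deposited table shows 5 of 47 measured photoreceptor and retinoid cycle genes that fell and none that rose, against the 0.126% of all genes that fell. The list median, -0.14, was the lowest of the 42 lists, and 42 of its 47 members had a negative ratio, against 5658 of 11946 genes. Rlbp1b, which encodes a retinaldehyde-binding protein of the visual cycle, had 8.34 FPKM at 32 µM and 12.1 at 16 µM in the authors' deposited table (log2 ratio -0.54; chromosome 25, 19595898 to 19608233). Cone arrestin arr3a, which shuts off activated cone opsins, had 221.3 and 274.4 FPKM at 32 and 16 µM (-0.31). The retinoid isomerase rpe65a, of the retinal pigment epithelium, had 14.7 FPKM at 32 µM and 18.1 at 16 µM in the authors' deposited table (-0.30, q = 0.0456). Retinoschisin rs1a, an adhesion protein secreted by photoreceptors, had 89.9 and 107.6 FPKM (-0.26). The green cone opsin opn1mw1 had 519.1 FPKM at 32 µM and 613.1 at 16 µM in the authors' deposited table (-0.24, q = 0.0331). The level of these 5 genes at 32 µM was 0.688 to 0.847 times that at 16 µM.

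The most abundant uncalled members of the list had negative ratios in the authors' deposited table. The ultraviolet opsin opn1sw1 had 1226.2 FPKM at 32 µM and 1351.2 at 16 µM (log2 ratio -0.14, q = 0.974), rhodopsin (rho) had -0.11 (q = 0.999) and the cone transducin subunit gngt2b -0.19 (q = 0.515). The blue opsin opn1sw2 came close to the threshold in the authors' deposited table, with 401.7 FPKM at 32 µM and 471.1 at 16 µM (-0.23, q = 0.0688). The 713 named genes at 100 FPKM or more had a median ratio of -0.03, so highly expressed genes as a class lay slightly below 0 as well. The green opsin opn1mw2, a low-expressed neighbour of opn1mw1, had 7.84 FPKM at 32 µM and 7.31 at 16 µM in the authors' deposited table (0.10, q = 0.999). The highest ratio of the list was 0.47, for the low-expressed guanylate cyclase activator guca1d at 2.79 and 2.01 FPKM at 32 and 16 µM (q = 0.999). Lens crystallins, from another part of the eye, had no called member among 39 in the authors' deposited table, a median of -0.06 and 33 negative ratios, with cryba4 at -0.01 and crybb1 at -0.05. The 23 pigment cell genes had no called member and a median of -0.06, with paics at -0.13 and tyrp1b at -0.12.

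Circadian output genes moved in both directions. The authors' deposited table called 3 of 13 measured PAR bZIP and other clock output genes, of which 2 rose and 1 fell, against 0.301% and 0.126% of all genes. The repressor nfil3-2 had 16.0 FPKM at 32 µM and 12.6 at 16 µM (log2 ratio 0.34), and hlfb, a PAR bZIP activator, had 8.34 and 6.73 FPKM (0.31). Thyrotroph embryonic factor tefa, a PAR bZIP factor of light-regulated transcription, had 20.3 FPKM at 32 µM and 25.8 at 16 µM in the authors' deposited table (-0.34). Among the uncalled members nfil3-5 had 0.21 (q = 0.251), hlfa 0.02 and nfil3 0.06 (q = 0.999 each), and the list median was 0.04. Of 16 clock repressors 1 rose, the Rev-erb beta gene nr1d2a, with 26.7 FPKM at 32 µM and 20.3 at 16 µM in the authors' deposited table (0.40). Its paralogue nr1d2b lay on the other side of 0 (-0.18, q = 0.575), cry2a had 0.05 and bhlhe40 -0.10 (q = 0.999 each). None of 12 clock activators was called (median 0.04; csnk1da -0.03, csnk1db -0.07). None of 12 genes listed for light-induced DNA repair was called either (median -0.015), and its most abundant members were hif1al (0.02), which encodes a hypoxia-inducible factor and no repair enzyme, and the DNA glycosylase tdg.1 (-0.04).

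Detoxification was represented by 2 called genes, each alone in its list and both lower at 32 µM, where 0.126% of all genes fell. Cyp1a, a cytochrome P450 and the classical target of the aryl hydrocarbon receptor, had 12.0 FPKM at 32 µM and 19.2 at 16 µM in the authors' deposited table (log2 ratio -0.67; chromosome 18, 4974675 to 4985563). The row named mpx, for the neutrophil myeloperoxidase, has the same start and end and had 19.7 and 32.2 FPKM at 32 and 16 µM (-0.71, q = 0.0688). These rows share a locus, and whether fragments were assigned by strand is not given, so their levels cannot be told apart. The other 9 members of the aryl hydrocarbon receptor list were not called in the authors' deposited table, and the list median was -0.02, with nqo1 at -0.06, foxq1a at -0.13 and tiparp at -0.01 (q = 0.999 each). The glutathione transferase gstt1b had 25.8 FPKM at 32 µM and 33.1 at 16 µM in the authors' deposited table (-0.37), the only called member of 29 cyp2, cyp3 and conjugation genes (median -0.01). In that list cyp2y3 had 0.25, zgc:162356 0.03 and sult6b1 -0.13, with q = 0.999 each. None of 31 Nrf2 and antioxidant targets was called (median -0.05; fth1a -0.07, prdx2 -0.05).

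Genes of skin, cartilage and plasma lipoproteins supplied further genes that fell, most of them highly expressed. Each of these lists had 1 called gene, where 0.126% of all genes fell. The type I keratin cyt1 was the most abundant called gene, with 744.4 FPKM at 32 µM and 897.6 at 16 µM in the authors' deposited table (log2 ratio -0.27). Its neighbour and relative krt17 had 294.1 and 342.5 FPKM (-0.22, q = 0.0774), while the more abundant krt4, krt5 and krt91 lay at -0.04, -0.02 and -0.08 (q = 0.999 each) among 37 keratin and claudin genes with a median of -0.03. Collagen IX col9a1b, of cartilage and notochord, had 152.2 FPKM at 32 µM and 190.0 at 16 µM in the authors' deposited table (-0.32), alone among 41 matrix genes with a median of -0.02 (col1a1a -0.11, col2a1a -0.05, sparc -0.05, q = 0.999 each). Calymmin (cmn), a notochord sheath protein, had 43.7 and 53.4 FPKM at 32 and 16 µM (-0.29). Apolipoprotein apoc1l had 626.0 FPKM at 32 µM and 749.6 at 16 µM in the authors' deposited table (-0.26). A pooled row of its neighbours apoa4b.1 and apoa4b.2, on the same stretch of chromosome 16, had 576.0 and 675.6 FPKM (-0.23, q = 0.0456). Among 27 apolipoprotein and lipid transport genes the median was -0.04, with apoa2 at -0.19 (q = 0.497), apoa1a at -0.16 (q = 0.714) and fabp1b.1 at 0.03 (q = 0.999). The other pooled row, of the galectins lgals1l1 and lgals2a, had 119.4 and 156.5 FPKM at 32 and 16 µM (-0.39).

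**Figure D3:**
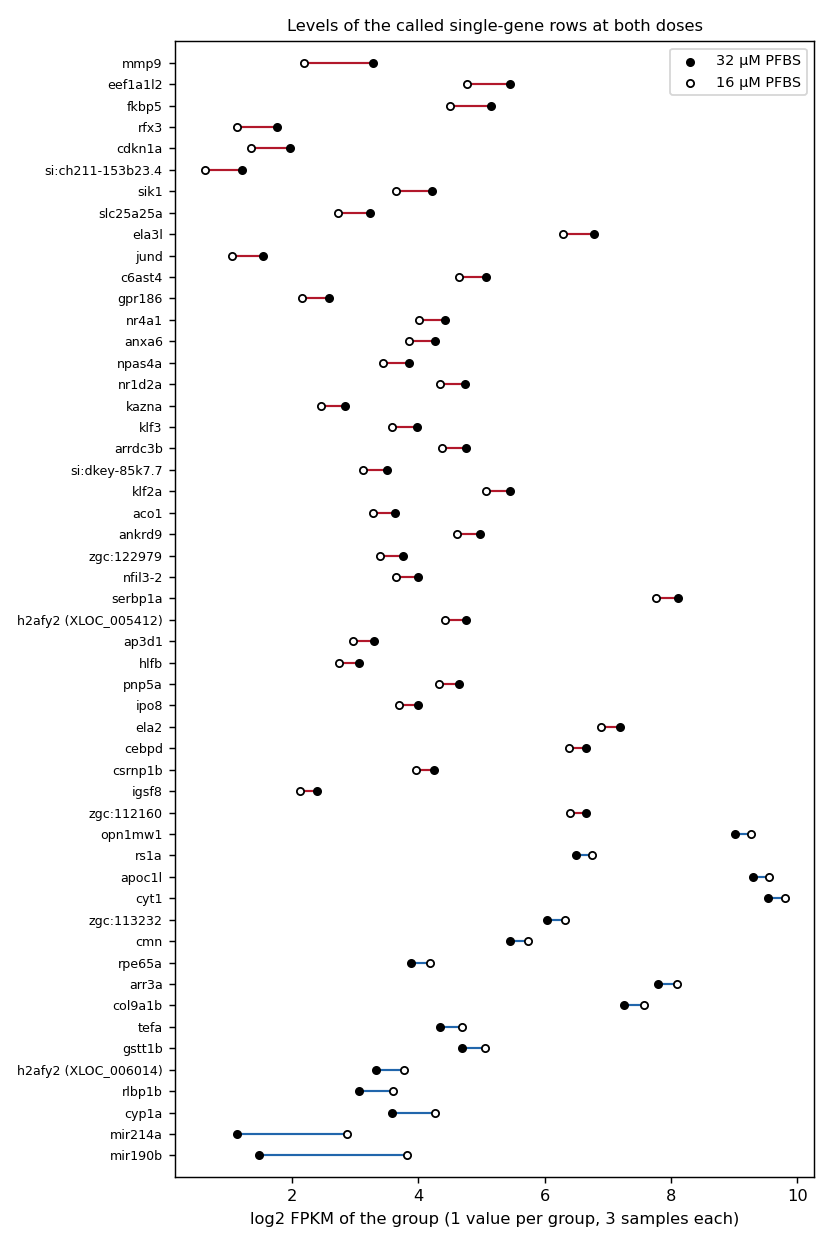
Level of each called single-gene row, as log2 FPKM (horizontal axis), at 32 µM PFBS (filled) and 16 µM PFBS (open); red lines join genes that rose at 32 µM and blue lines genes that fell, in the order of their ratio. Each point is the authors' 1 value for a group of 3 samples, without an error; mmp9 stands at the top with a log2 ratio of 1.10 and mir190b at the bottom with -2.36.

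Inflammation and immune genes had 1 called member of 32, mmp9, already described, against 0.427% of all genes called. Their median in the authors' deposited table was 0.14, with 21 ratios above 0 and 11 below. The lowest ratio of the list was that of the mpx row (-0.71, q = 0.0688), which shares its locus with cyp1a. Lysozyme (lyz), of neutrophils and macrophages, had 71.0 FPKM at 32 µM and 79.3 at 16 µM (log2 ratio -0.16, q = 0.999), and apoeb had -0.02 (q = 0.999). Nfkbiab, an inhibitor of NF-kB induced by it, had 53.4 and 45.6 FPKM in the authors' deposited table (0.23, q = 0.207). Irg1l, an itaconate-producing enzyme of stimulated macrophages and epithelium, had 4.08 FPKM at 32 µM and 2.83 at 16 µM (0.53, q = 0.0774). The row beside irg1l on chromosome 14, si:ch211-153b23.4, rose, with 2.31 and 1.54 FPKM in the authors' deposited table (0.59, q = 0.0456). Besides mmp9, nfkbiab and irg1l lay above 0, as did 21 of the 32 list members, whereas lyz, apoeb and the mpx row lay below it. The part of neutrophils and macrophages in the mmp9 result was not tested. The interferon list had no called member among 9 (median -0.02; stat1a 0, irf7 0.07).

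Single members rose in 4 more lists, where 0.301% of all genes rose. Translation factors had eef1a1l2 alone of 47 in the authors' deposited table, with a median of -0.02, and its far more abundant paralogue eef1a1l1 had 3743.1 FPKM at 32 µM and 3795.3 at 16 µM (log2 ratio -0.02). The rows lie side by side on chromosome 19, eef1a1l1 at 45287363 to 45290687 and eef1a1l2 at 45290961 to 45303227. Whether reads of eef1a1l1 were counted in the eef1a1l2 row was not tested. Reads may be divided between related genes, here as among the keratins, and no sequences were compared. Among 64 genes of DNA replication and the cell cycle cdkn1a alone rose (median 0), while pcna had 0.01 and ccng1 -0.03 in the authors' deposited table. The mitochondrial ATP and phosphate carrier slc25a25a, known as a calcium-dependent carrier, had 9.45 and 6.63 FPKM at 32 and 16 µM in the authors' deposited table (0.51), alone among 41 carriers (median 0; slc25a5 -0.04, slc25a3b -0.03). The nuclear receptor list had nr4a1 alone of 43 (median 0.01, with nr2f2 and nr2f1a at 0.01 each). Nr1d2a, also a nuclear receptor, rose too (0.40) but was counted with the clock repressors and not in this list. In each of these 4 lists the remaining members were centred near 0.

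**Figure D4:**
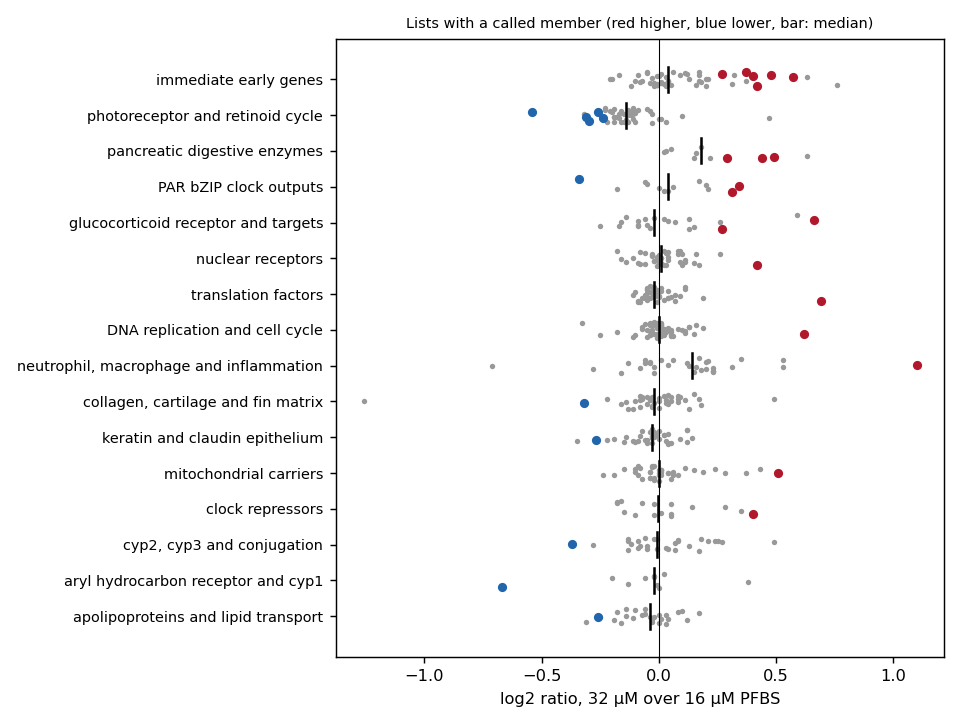
Log2 ratio of 32 µM over 16 µM PFBS (horizontal axis) for every measured member of the 16 lists with a called member, 1 point per gene; red members rose, blue members fell, grey members were not called, and the black bar is the list median. All 11 pancreatic enzymes with a row of their own lie above 0, and the photoreceptor list is shifted to the left with a median of -0.14.

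A further 22 called genes stood in none of the lists. The most abundant of those that rose was serbp1a, an mRNA- and ribosome-binding protein, with 276.3 FPKM at 32 µM and 218.3 at 16 µM in the authors' deposited table (log2 ratio 0.34). The annexin anxa6 had 19.2 and 14.4 FPKM at 32 and 16 µM (0.41), the Krüppel-like repressor klf3 had 15.8 and 12.0 FPKM (0.39), and the arrestin-domain gene arrdc3b had 27.1 and 20.8 FPKM (0.38). Aco1, the cytosolic aconitase that doubles as an iron sensor, had 12.5 FPKM at 32 µM and 9.71 at 16 µM in the authors' deposited table (0.37). The ankyrin repeat gene ankrd9 (0.36), the adaptor subunit ap3d1 (0.33), the purine nucleoside phosphorylase pnp5a (0.31), the importin ipo8 (0.30) and the immunoglobulin superfamily gene igsf8 (0.27) also rose. So did gpr186 (0.43), kazna (0.40, q = 0.0331), si:dkey-85k7.7 (0.38), zgc:122979 (0.36) and zgc:112160 (0.26, q = 0.0331), whereas zgc:113232 fell, with 65.8 and 79.9 FPKM at 32 and 16 µM in the authors' deposited table (-0.28). Histone variant macroH2A2, h2afy2, appears in 2 called rows of opposite sign on chromosome 13. The row at 6470389 to 6484818 rose in the authors' deposited table, with 26.9 FPKM at 32 µM and 21.6 at 16 µM (0.33), and the row at 6330424 to 6344970 fell, with 10.1 and 13.6 FPKM (-0.42).

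Among called rows that name a gene, those named for microRNAs held the largest decreases. In the authors' deposited table the mir190b row, at 19767856 to 19769618 on chromosome 16, had 2.79 FPKM at 32 µM and 14.2 at 16 µM (log2 ratio -2.36). The mir214a row had 2.19 and 7.36 FPKM at 32 and 16 µM (-1.75). It spans 14733880 to 14839577 on chromosome 20, far longer than a microRNA, and a row named dnm3a with the same start and end had a ratio of 0.09 (q = 0.999). Such rows count polyadenylated RNA assembled over the locus and not the mature microRNA. Of 48 rows named for microRNAs these 2 were called and 0 rose, where 0.427% of all genes were called and 0.126% fell. The median size of the log2 ratio was 0.12, against 0.06 for the other 11899 genes, without matching for level. Over all rows that median was 0.23 at 1 to 2 FPKM, 0.12 at 2 to 5 FPKM and 0.05 at 20 to 50 FPKM. At 16 µM both rows also lay above the control in the authors' deposited tables, by 2.44 for mir190b and 1.86 for mir214a (q = 0.0219 each), and mir190b at 32 µM lay 0.08 from the control (q = 0.957). Without values per sample it cannot be read whether all 3 samples at 16 µM were high.

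Of 16412 unnamed rows 42 were called, 32 higher and 10 lower, where 0.329% of all rows were called. None of the 42 overlapped a named row, and 11 lay within 10 kb of one. The same shares over all unnamed rows are not given here, so nothing is read from these counts. The nearest named gene was called for none of the 42, where 0.427% of all genes were called. The mitochondrial row had no named row on its chromosome to compare. In the authors' deposited table the unnamed rows that rose had a median log2 ratio of 0.48 and those that fell one of -0.34. A row on the mitochondrial genome, at 2074 to 4876, had 18.8 FPKM at 32 µM and 22.8 at 16 µM in the authors' deposited table (-0.28, q = 0.0456). Of the called rows 3 were listed at 0 in a group. Rows on chromosomes 16 and 6 with 2.48 and 3.10 FPKM at 32 µM were listed at 0 at 16 µM. Another row on chromosome 6 was listed at 0 at 32 µM with 16.0 FPKM at 16 µM. Its match against the control, with 15.9 FPKM at 16 µM and 0.467 in the control, was not called (log2 ratio 5.08, q = 0.998). The sulfotransferase sult3st4, with 192.7 FPKM at 32 µM and listed at 0 at 16 µM, was not called (q = 0.999), so a listing at 0 did not by itself lead to a call.

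Where both doses stood relative to the control differed between the called genes. The ratios for a dose over the control come from the authors' deposited tables for those pairs, which share the PFBS groups with the comparison described here, so the values are given side by side and add no independent evidence. For mmp9 the log2 ratio to the control was 0.07 at 16 µM (q = 0.998) and 1.17 at 32 µM (q = 0.00521). Eef1a1l2 had 0.03 (q = 0.998) and 0.72 (q = 0.00521) at 16 and 32 µM in the authors' deposited tables, and ela3l had 0.13 (q = 0.998) and 0.62 (q = 0.00521). In these genes 16 µM was near the control and 32 µM was called above it.

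For other genes that rose between doses, 16 µM lay below the control and 32 µM near it. Nr1d2a had ratios to the control of -0.46 at 16 µM (q = 0.0219) and -0.06 at 32 µM (q = 0.774) in the authors' deposited tables. Nr4a1 had -0.41 (q = 0.0219) and 0.01 (q = 0.981), cebpd had -0.38 (q = 0.0219) and -0.11 (q = 0.441), and anxa6 had -0.55 (q = 0.0219) and -0.13 (q = 0.403) at 16 and 32 µM. Klf2a followed with -0.31 (q = 0.0385) and 0.06 (q = 0.741) in the authors' deposited tables. The kinase sik1 was called on opposite sides of the control, with -0.38 at 16 µM (q = 0.0219) and 0.19 at 32 µM (q = 0.0215). The cyp1a row was above the control at both doses and lower at the higher dose, with 1.49 at 16 µM (q = 0.0219) and 0.82 at 32 µM (q = 0.00521). The mpx row of the same locus had 1.6 (q = 0.0219) and 0.89 (q = 0.00521), and their levels cannot be told apart. Tefa was below the control at both and lowest at the higher dose, with -0.31 (q = 0.0219) and -0.66 (q = 0.00521) in the authors' deposited tables.

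The vision genes that fell were on either side of the control. Opn1mw1 had ratios to the control of 0.25 at 16 µM (q = 0.188) and 0.02 at 32 µM (q = 0.96), rs1a had 0.18 (q = 0.998) and -0.08 (q = 0.577), and rpe65a had 0.16 (q = 0.998) and -0.14 (q = 0.43) in the authors' deposited tables. Arr3a had 0.10 (q = 0.998) and -0.21 (q = 0.00521), and rlbp1b had 0.12 (q = 0.998) and -0.43 (q = 0.00521) at 16 and 32 µM. All 5 thus had positive ratios at 16 µM without passing the test there. Among list members not called between the doses, opn1sw2 (0.32) and gngt2b (0.34) were called above the control at 16 µM (q = 0.0219 each). Opn1sw1 (0.18) and rho (-0.01) were not (q = 0.998 each). The rows of aco1 and ap3d1 have other levels in the tables against the control than in this one (aco1 at 32 µM had 26.4 FPKM there and 12.5 here), so their ratios are not set side by side.

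**Figure D5:**
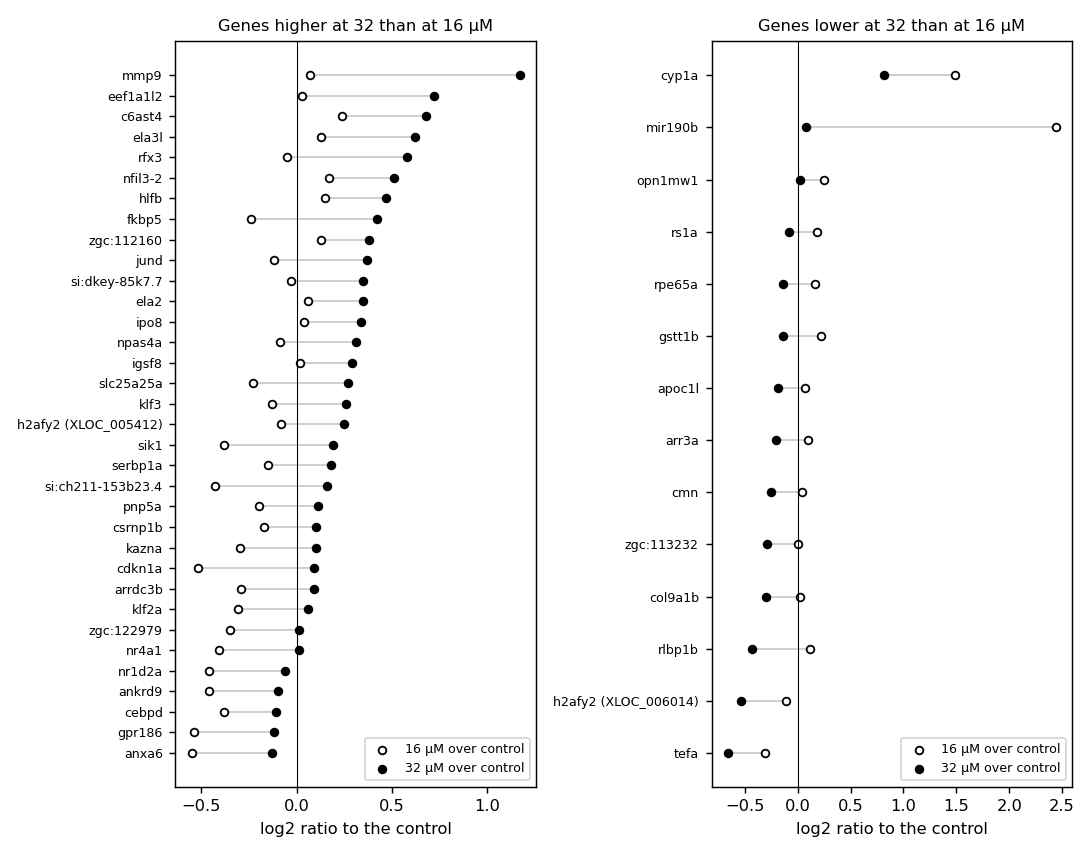
Log2 ratio to the control (horizontal axis) at 16 µM (open) and 32 µM PFBS (filled) for called single-gene rows that have a match of like level in the authors' tables against the control (aco1, ap3d1, cyt1 and mir214a have none), with genes that rose between doses on the left and genes that fell on the right. For nr1d2a and anxa6 the open points lie left of 0 at -0.46 and -0.55, while for mmp9 and eef1a1l2 they lie near 0 at 0.07 and 0.03.

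Most gene lists held no called member among single-gene rows. Among the 26 such lists, the liver list of 26 plasma protein and metabolism genes had a median log2 ratio of -0.10 with 21 negative members in the authors' deposited table, and its most abundant members apoa2 and rbp4 had -0.19 (q = 0.497) and -0.09 (q = 0.999). Complement and coagulation, also liver products, had 28 members, a median of -0.075 and 21 negative ratios (fgg -0.13, fgb -0.11). Cholesterol synthesis lay on the other side in the authors' deposited table, with a median of 0.10 over 27 genes and 21 positive ratios (hmgcs1 0.18, q = 0.575; fdps 0.18, q = 0.732). The 12 genes of the thyroid axis had a median of 0.10, with klf9 as given and ttr at -0.01. The 44 hox genes, which specify position along the body axis, had a median of -0.115 with 33 negative ratios (hoxb3a 0.11, hoxb5a -0.02). No gene of these lists passed the test, so no change is read from their medians.

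The other lists of lipid and energy metabolism stayed close to 0 in the authors' deposited table without a called gene. Apolipoproteins and mitochondrial carriers, each with a called gene, are described above. Fatty acid oxidation and PPAR targets, 39 genes, had a median of 0 (acadm 0.03, etfb -0.02), and fatty acid and triglyceride synthesis, 21 genes, one of 0.04 (elovl4b -0.04, elovl1b -0.10). Bile acid metabolism had 8 measured genes and a median of -0.055 (cyp8b1 0.05, cyp7a1a -0.01), glucose metabolism 47 and -0.01 (gapdh -0.06, gapdhs -0.02). Amino acid, sugar and monocarboxylate transporters, 42 genes, had a median of 0.025 (slc1a2b -0.01, slc3a2b 0.15). The respiratory chain and ATP synthase had 66 negative ratios among 79 genes and the cytosolic ribosomal proteins 68 among 82 in the authors' deposited table, with medians of -0.05 and -0.04 (atp5b -0.01, atp5a1 0, rpl37 -0.04, rplp1 -0.07). Those medians are close to the -0.03 of named genes at 100 FPKM or more. That class includes members of both lists, such as atp5b and rpl37, so the values are not independent. Chaperones and proteasome, 86 genes, had a median of -0.01 (hspa8 -0.01, hsp90ab1 -0.02).

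The remaining organ lists had no called single-gene row in the authors' deposited table either. The intestine had a median of 0.06 over 16 genes (fabp2 0, vil1 0.08), and the pooled row of apoa4b.1 and apoa4b.2 that fell (-0.23, q = 0.0456) holds members of this list too. Ionocytes, which take up salt through the skin, had a median of 0.005 over 22 (atp6v0ca -0.06, aqp3a -0.07). Erythrocyte genes had a median of -0.01 over 16, with the embryonic globins hbae3 at -0.05 and hbae1 at 0.38 (q = 0.107). Skeletal and cardiac muscle had -0.03 over 58 genes (actc1b -0.01, pvalb2 0.01) and neurons, glia and myelin 0.03 over 44 (sncb -0.05, tubb5 0.01). Pituitary and hypothalamic hormones had a median of 0.05 over 24 genes (adcyap1b 0.11, sst1.1 0.13). In all, 29 of the 51 called genes stood in at least 1 of the 42 lists, which held 1353 of the 11946 genes. The lists were chosen with earlier results of these data known, so no enrichment is read from this count.

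Just outside the threshold, 24 rows had q-values of 0.0595 to 0.0972 in the authors' deposited table. Besides opn1sw2, sgk1, krt17, irg1l and the mpx row, they included the ammonium transporter rhcga, with 2.48 FPKM at 32 µM and 1.51 at 16 µM (log2 ratio 0.72, q = 0.0774), the heat shock factor hsf2 at -0.30 (q = 0.0774) and the glutathione-degrading enzyme chac1 at 0.22 (q = 0.0888). Just inside it, 8 rows had q = 0.0456, among them jund, rpe65a and the pooled apoa4b row. Sgk1, irg1l, opn1sw2, opn1mw2, krt17, guca1d, sult3st4, rhcga, hsf2 and chac1, the called genes outside the lists that are not among the 15 largest changes or the 10 highest levels, and the unnamed rows described were chosen after their values were seen.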

How the data were processed

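Polyadenylated RNA of whole larvae was sequenced as stranded, paired-end libraries, per the labels' protocols. Per the file headers, the authors deposited for each pair of groups a table with each group's log2 FPKM, a log2 ratio, its q-value and a significance flag, with 1 value per group. Cufflinks and the build danRer7 are named in the submitters' processing notes; the aligner, versions, annotation and test were not given in the sources used here. The deposited ratio equals the difference of the levels to within 0.01, the calls equal q below 0.05 on every row, and a log2 of -10 stands for 0 FPKM; all were checked on every row. FPKM were obtained as powers of the deposited log2 values.

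No test was run, since the tables used here hold no values per sample; depth per sample is therefore unknown. The deposited q-values come from a test that was not named. Per the design text, the samples of a group came from separate experiments. Of 29163 rows, 12510 name a single gene (11946 names), 16412 none and 241 several; 4718 rows share a locus with another. Genes were counted by their row with the highest mean level. Of the names, 10588 are current RefSeq symbols of GRCz12tu; list symbols absent from the table were looked up under 1 older name. Named rows were matched between tables by gene name and any overlap of position, and unnamed rows by a reciprocal overlap of at least 0.5. A group's level was compared between its tables for genes with 1 row, the same position in both and 1 FPKM or more. The median difference on the log2 scale was 0.02 at 16 µM (6134 genes) and 0.01 at 32 µM (5849 genes). The largest was 1.57 and 2.33. Rows matched by partial overlap did not enter these values.

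Named were the 15 genes with the largest rise and the 15 with the largest fall at 1 FPKM or more, the 10 most abundant called genes, up to 8 called and 3 abundant uncalled members of each of 42 lists (2 where none was called), and the others said to be chosen later. The groups compared, the lists and the rules were chosen with earlier results of these data known. Python 3.11.15, pandas 2.3.3, numpy 2.4.6 and matplotlib 3.10.9 were used.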

Additional observations from a re-analysis of the deposited data

How the results depend on the processing

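The stricter threshold of q below 0.01 left 0 called rows, since no q-value in the table is below 0.0194, so 0 were higher and 0 lower. A minimum change of 1.5-fold left 20 called rows, 16 higher and 4 lower at 32 µM, with the 3 rows listed at 0 in a group among them. At q below 0.1, 120 rows were called, 81 higher and 39 lower. A minimum of 5 FPKM left 78. A minimum of 1 FPKM, 1 row per locus and centring on the median ratio left 96, and these settings could not change the count. No called row lay below 1 FPKM in its higher group, called rows shared no locus with each other, and the median ratio was 0. Adding 1 FPKM to each level can shrink a ratio but cannot change its direction. With it, the median size of change was 0.348 in place of 0.39. The ratio of si:ch211-153b23.4 came to 0.39 in place of 0.59. At q below 0.1, 38 list members were called in place of 29, with 6 photoreceptor genes. Leaving out a sample was not run, since each group has 1 value. No paired analysis was possible because the table's columns hold groups and not samples. The unknown depth limits how a row that was not called can be read: a difference may have been too small to detect.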
